A study of Mus musculus with 8 samples.

Results

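The cells described here are the stimulated T cells that the authors annotated as CD8 central memory (Tcm). They were taken from the deposited cell table as the cells of class CD8 whose subset name, with its cluster number removed, was Tcm, in the 4 stimulated libraries. The rule gave 1630 of the 12846 cells of the series, with 648 and 593 cells in WT 1 and WT 2 and 225 and 164 cells in KO 1 and KO 2. They fall in 5 clusters of the authors, Tcm1 to Tcm5.

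T cells were purified from mouse spleen with a magnetic pan T cell kit and cultured for 48 hours with antibodies to CD3 (5 μg/mL) and to CD28 (2.5 μg/mL), which replace the antigen and costimulatory signals, and dead cells were then removed. WT denotes the control genotype, and SDHA-KO denotes Sdha fl/fl CD4-Cre mice, whose Cre is driven by the Cd4 promoter and so acts in T cells that have passed through a CD4-expressing stage in the thymus. The mice of the study were 8 to 12 weeks old. The series also holds 2 unstimulated libraries of each genotype, which are used here only in an alternative fit. Each genotype had 2 stimulated libraries, and the labels do not say that they came from separate mice, so the p values measure the spread between libraries, which may be technical.

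SDHA is the catalytic subunit of succinate dehydrogenase (complex II), the enzyme that oxidizes succinate to fumarate in the TCA cycle and passes the electrons into the electron transport chain (ETC). Succinate is also a product of the prolyl hydroxylases that mark HIF-1α for degradation, and succinate that accumulates inhibits them. Central memory cells are long-lived T cells that recirculate through lymph nodes with the help of the chemokine receptor CCR7 and divide upon reencounter with antigen, while effector memory (Tem) cells patrol tissues and carry cytotoxic and cytokine genes in a poised state. Most T cells bear an αβ receptor, encoded in part by Trac, and a smaller γδ lineage bears a receptor encoded in part by Trdc. γδ cells do not need the CD4-expressing thymic stage.

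Tcm cells were shallow and rich in mitochondrial transcripts in every library. Their median UMIs per cell were 11488 and 11036 in WT 1 and WT 2 and 11222 and 10426.5 in KO 1 and KO 2, whereas Tem cells of the same libraries had medians of 65563, 65127, 50089, and 48529. Mitochondrial transcripts, from 13 genes, took a median of 21.5% and 19.98% of the UMIs of a cell in WT and 19.2% and 21.3% in the KO-labelled libraries, against 3.11%, 2.92%, 2.43%, and 2.39% in Tem cells. The subsets thus did not overlap in either median in any library, and Tcm and Tem sums compare cells of unlike depth. Cells under 10% mitochondrial UMIs made up 4.32% and 4.89% of WT Tcm cells and 20.9% and 13.4% of KO-labelled ones.

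**Figure D1:**
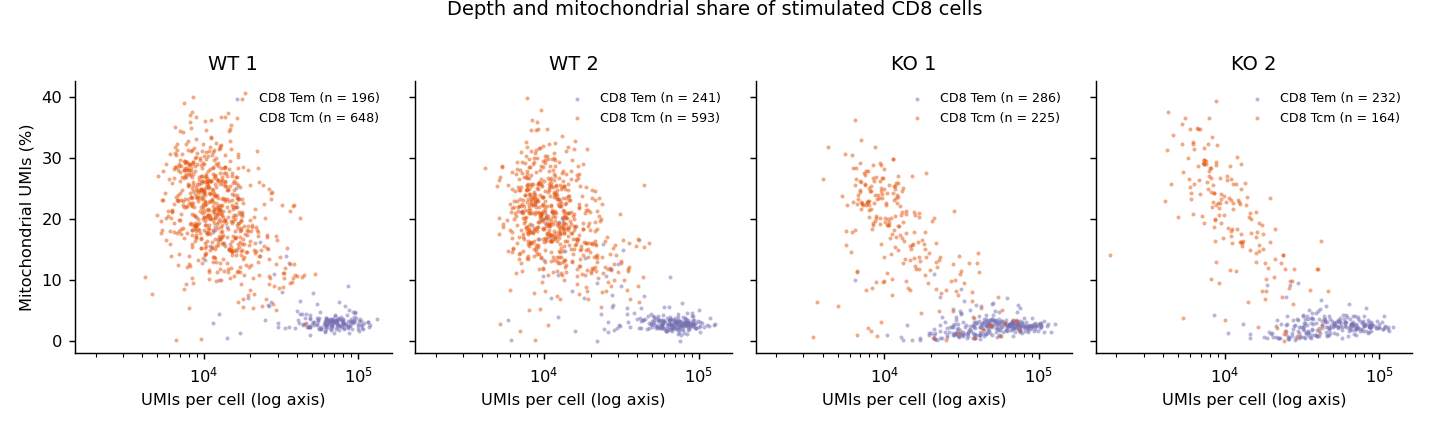
Each point is 1 stimulated CD8 cell, with its UMIs on a log x axis and its percentage of mitochondrial UMIs on the y axis, and each panel is 1 library (WT 1, WT 2, KO 1, KO 2). Tcm cells (orange) have medians from 10426.5 to 11488 UMIs and Tem cells (purple) from 48529 to 65563 UMIs with few mitochondrial UMIs, and a larger share of the KO-labelled Tcm cells lies under 10%.

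The whole stimulated series held from 1648 to 1801 cells a library, and the Tcm sums held from 2155764 to 8592199 UMIs. Of all cells, 46 carried a barcode that also occurs in another library, and 12 of these were stimulated CD8 Tcm cells, which were kept in every sum. Replicates of a genotype differed by more than sampling noise, with a chi-square per gene of 3.75 for WT and 5.23 for the KO-labelled pair.

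Tcm cells took a smaller share of the CD8 class in the KO-labelled libraries. They were 76.8% and 71.1% of the stimulated CD8 cells in WT (73.9% ± 4.0, SD, n = 2) and 44.0% and 41.4% in the KO-labelled libraries (42.7% ± 1.9, SD, n = 2), with the groups apart by 31.2 percentage points. The difference was 47.4 points among cells with a Cd8a or Cd8b1 UMI and no Cd4 or Trdc UMI, and 1.36 points among cells under 10% mitochondrial UMIs. With 2 libraries against 2, an exact two-sided permutation test cannot go below 0.33, so no test was run on shares of cells.

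Most WT cells held the defining CD8 transcripts, and over 50% of the KO-labelled cells had no UMI of them at this depth, which fewer CD8 cells or less Cd8 RNA per cell would both give. Cd8a and Cd8b1 encode the chains of the CD8 coreceptor. A UMI of either gene was found in 91.5% and 91.6% of WT Tcm cells but in 44.0% and 45.1% of the KO-labelled ones. Trac UMIs were found in 83.0% and 81.6% of WT cells and in 45.3% and 51.8% of KO-labelled cells. In contrast, Trdc UMIs were found in 2.93% of WT 1 cells (19 of 648; 95% exact interval, 1.77% to 4.54%) and 4.38% of WT 2 cells (26 of 593), but in 69.3% of KO 1 cells (156 of 225; 62.9% to 75.3%) and 66.5% of KO 2 cells (109 of 164). Intervals cover counting error only. After every cell was thinned to 5000 UMIs, which left out 5 WT and 10 KO-labelled cells, the Trdc shares were 1.86% and 3.05% in WT and 55.2% and 49.4% in the KO-labelled libraries. In CD4 cells of the same libraries, at median depths from 14464 to 24651.5 UMIs, the shares at 5000 UMIs were 1.07%, 1.16%, 3.48%, and 2.75%. The KO-labelled Tcm shares lay far above both the WT shares and those of the CD4 cells in their own libraries.

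Trdc-bearing cells without any Cd8 UMI were 45.3% and 47.6% of the KO-labelled Tcm cells against 1.23% and 1.52% of the WT ones. Another 24.0% and 18.9% of KO-labelled cells held both a Trdc and a Cd8 UMI. The same libraries showed the pattern in Tem cells at lower shares after thinning, with Trdc UMIs in 27.3% and 23.7% of KO-labelled Tem cells and 2.04% and 2.49% of WT ones. Mki67, a marker of cycling cells, had a UMI in 67.0% and 65.8% of WT Tcm cells and in 79.2% and 72.2% of KO-labelled Tcm cells at 5000 UMIs, and in 37.9% to 54.8% of Tem cells. Mki67 was thus found in most Tcm cells of every library.

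**Figure D2:**
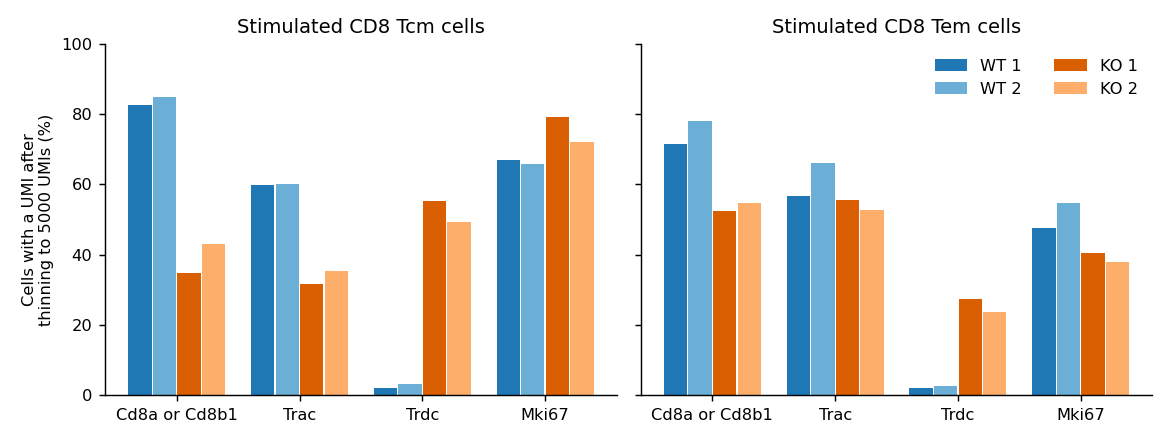
Bars give the percentage of cells with at least 1 UMI of Cd8a or Cd8b1, Trac, Trdc, or Mki67 after thinning each cell to 5000 UMIs, for each of the 4 stimulated libraries, in Tcm cells (left) and Tem cells (right). Trdc was found in 55.2% and 49.4% of KO-labelled Tcm cells and in 1.86% and 3.05% of WT ones, and Cd8 in fewer KO-labelled cells.

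Because of this, the comparison of KO-labelled with WT libraries was made for all annotated Tcm cells and again for the strict cells, those with a Cd8a or Cd8b1 UMI and no Cd4 or Trdc UMI. Strict cells numbered 561 and 501 in WT and only 41 and 41 in the KO-labelled libraries, and 46.3% of the strict KO 1 cells were under 10% mitochondrial UMIs, against 4.28% and 4.99% in WT. Some genes are also given for the cells with a Trdc UMI, which were 45 in WT and 265 in the KO-labelled libraries. A Trdc transcript can be missed at this depth, so strict cells may still include γδ cells. A lower sum can reflect fewer cells of a type or less RNA of a gene per cell, and the sums do not tell these apart.

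B cell markers were high in KO 1, and γδ markers in both KO-labelled libraries. Marker sums are given as CPM before composition scaling. Of 8 B cell markers, all were present in KO 1 Tcm cells, at a summed 861 CPM, against 36.8, 38.6, and 46.9 CPM in WT 1, WT 2, and KO 2, where 3, 4, and 5 of them were at 0. In KO 1, 93.3% of these UMIs lay in 5 cells. The summed γδ markers were at 454 and 559 CPM in KO 1 and KO 2 and at 22.3 and 41.5 CPM in WT 1 and WT 2. Myeloid markers summed to 3.72 to 7.42 CPM with 6 or 7 of 9 at 0, and natural killer cell markers to 12.05 to 52.0 CPM with 3 or 4 of 7 at 0. Erythroid markers reached 18.1 CPM in KO 1, with 52 of 63 UMIs in 1 cell, and 2.09 to 5.10 CPM elsewhere. The 5 markers of CD4 T cells summed to 1186 and 1203 CPM in WT and to 714 and 668 CPM in the KO-labelled libraries. Most of this sum was Tnfrsf4, whose own level on the TMM scale is given under the other observations. Cd4 itself moved the other way, with a UMI in 4.48% and 7.08% of WT cells and in 9.33% and 8.54% of KO-labelled cells.

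The clusters were not filled alike by the genotypes. Tcm4 held 40.9% and 44.5% of KO-labelled Tcm cells and 23.6% and 26.6% of WT ones, whereas Tcm1 held 8.89% and 8.54% of KO-labelled and 29.9% and 28.8% of WT ones. Trdc UMIs were found in 81.5% and 72.6% of the KO-labelled Tcm4 cells and in 75.4% and 73.7% of the Tcm3 cells. Tcm4 also held the B cell signal, as Iglc3, Mzb1, Iglc2, Cd79a, Igkc, Cd74, and 3 MHC class II genes were 9 of its 10 leading genes in the 2 KO-labelled libraries pooled, over the other CD8 cells. This was not a trait of both libraries, since KO 2 Tcm cells held no Igkc or Mzb1 UMI and 3 H2-Ab1 UMIs. The remaining gene was Il22, with 242 of its 244 UMIs in KO 2 Tcm cells in 1 cell. In WT the leading genes of Tcm4 were Gzma, Il24, and Ifng. Tcm3 had the deepest cells, with medians of 21277 and 21741 UMIs in WT and 18475 and 18790.5 in the KO-labelled libraries, and Tcm1 and Tcm4 the shallowest, with medians from 6763 to 9667.5 UMIs.

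The targeted gene did not pass the test over all annotated Tcm cells. The deleted exons are not given in the sources used here, so the 3′ counts of Sdha may lie outside the deleted part, and no Sdha value here measures the deletion itself. Sdha stood at 110 and 105 CPM in WT, against 102 and 97.1 CPM in the KO-labelled libraries (TMM-scaled, log2 fold change −0.10 ± 0.10, SE, adjusted p = 0.456). The groups did not overlap on this scale, but before composition scaling they did, at 106 and 101 against 106 and 99.7 CPM. Among strict cells, Sdha was lower in the KO-labelled libraries (log2 fold change −0.76 ± 0.16, adjusted p = 0.0196), with 67.3 and 65.1 CPM before scaling from 43 and 35 UMIs, against 107 and 101 CPM in WT. In cells with a Trdc UMI, the KO-labelled libraries had 124 and 115 CPM before scaling and WT 94.5 and 97.4 CPM (log2 fold change 0.20 ± 0.22, adjusted p = 0.627).

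Within the KO-labelled libraries, Trdc-bearing Tcm cells had more Sdha than strict cells (log2 difference 0.83 ± 0.23, adjusted p = 0.0344), in a comparison that called 490 of 9319 genes (5.26%, with 1.76% higher and 3.5% lower). Of strict KO 1 and KO 2 cells, 46.3% and 17.1% were under 10% mitochondrial UMIs, against 13.46% and 11.01% of Trdc-bearing ones. Among all Tcm cells under 10%, Sdha before scaling was at 67.3 and 69.7 CPM in KO 1 and KO 2. WT had 112 and 96.3 CPM (log2 fold change −0.52 ± 0.27, adjusted p = 0.171). Of the KO-labelled cells under 10%, 44.7% and 54.5% held a Trdc UMI. The part of mitochondrial content in the Sdha difference was not tested. The difference between the Trdc-bearing and the strict cells in the KO-labelled over WT change, 0.95 ± 0.33, did not pass adjustment (adjusted p = 0.263; 23 of 9319 genes, 0.247%, did, 0.129% higher and 0.118% lower). In Tem cells, Sdha was lower in the KO-labelled libraries (log2 fold change −0.78, adjusted p = 0.00081), and the change in Tcm minus that in Tem was 0.65 (adjusted p = 0.0582). The libraries labelled SDHA-KO are therefore called KO-labelled throughout, since Sdha over all Tcm cells did not separate them from WT by the test. The name is no statement on the genotype of the mice. The study reported loss of SDHA by Western blot, and at the mRNA and protein levels in splenic CD4 and CD8 T cells.

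**Figure D3:**
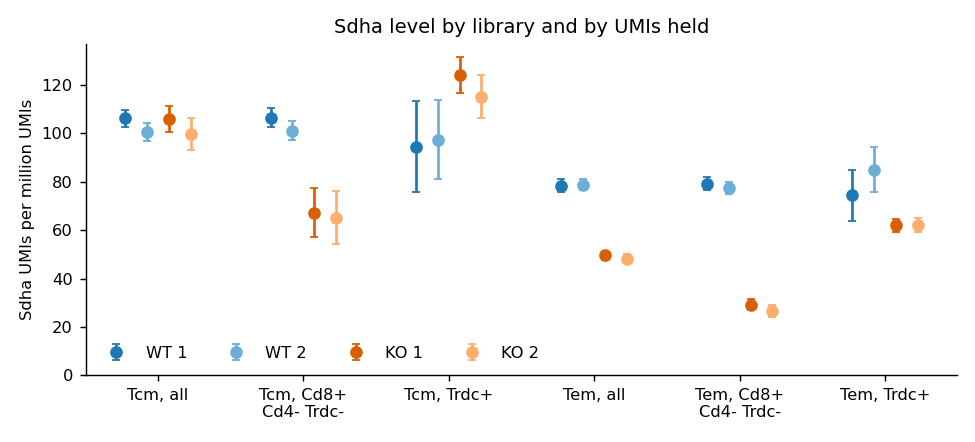
Points give the Sdha CPM before composition scaling in the summed cells of each stimulated library, with bars for the counting error (1 SD), for all Tcm or Tem cells, for strict cells, and for cells with a Trdc UMI. Strict Tcm cells of the KO-labelled libraries lie at 67.3 and 65.1, below all WT sums, and Trdc-bearing ones at 124 and 115.

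The other subunits of complex II did not fall. Sdhd, a membrane anchor subunit, stood at 61.0 and 75.4 CPM in WT and 121 and 139 CPM in the KO-labelled libraries and rose (log2 fold change 0.92 ± 0.14, adjusted p = 0.0037). In strict cells it rose by 0.78 (adjusted p = 0.0353). Sdhb, the iron-sulfur subunit, gave 0.28 (adjusted p = 0.0834) over all Tcm cells and rose by 0.74 in strict cells (adjusted p = 0.016). Sdhc, the other anchor, gave 0.23 (adjusted p = 0.211).

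KO-labelled and WT Tcm sums differed at 3358 of 12051 genes tested (27.9%), of which 1733 (14.4%) were higher and 1625 (13.5%) lower in the KO-labelled libraries. Among strict cells 1308 of 11074 genes were called (11.8%), 6.4% higher and 5.41% lower. Among Trdc-bearing cells 434 of 8434 were called (5.15%), 2% higher and 3.14% lower. Over all genes tested, the median change was 0.01, −0.04, and 0.01 on the log2 scale in these fits. Counts in the gene lists below are to be read against the shares of called genes given here. Leaving out 1 WT library lowered the count to 899 (without WT 1) or 862 (without WT 2), and without composition scaling the count was 3602 with 2338 higher, since all values then shift up by 0.10.

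The genes with the largest falls held no T cell receptor genes, and nearly all of them fell in strict and Trdc-bearing cells too. Mboat2, a lysophospholipid acyltransferase, stood at 68.5 and 78.4 CPM in WT, against 6.67 and 2.71 CPM in the KO-labelled libraries (log2 fold change −3.83 ± 0.25, adjusted p = 0.000456). P4ha2, a subunit of the collagen prolyl 4-hydroxylase, went from 35.9 and 41.5 CPM to 5.56 and 3.16 CPM (−3.06 ± 0.23, adjusted p = 0.000571). Gbe1, the glycogen branching enzyme, went from 226 and 264 CPM to 35.3 and 31.2 CPM (−2.87 ± 0.13, adjusted p = 0.000346). In each of these genes both KO-labelled sums lay far below both WT sums.

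Egln3, which encodes the HIF prolyl hydroxylase PHD3, was at 187 and 245 CPM in WT, against 30.8 and 28.0 CPM in the KO-labelled libraries (−2.86 ± 0.17, adjusted p = 0.000389). It had a UMI in 69.8% and 76.9% of WT cells and in 63 of 225 and 41 of 164 KO-labelled cells. The change was −2.85 in strict cells (adjusted p = 0.00103) and −2.37 in Trdc-bearing cells (adjusted p = 0.000916), so it was of like size in cells with and without the γδ transcript. The other genes of the 10 were Unc13a (−3.33), a vesicle priming factor; Ndrg1 (−2.84), a stress-responsive gene; Npas2 (−2.76), a circadian transcription factor; Abhd18 (−2.49); Arrb1 (−2.44), β-arrestin 1; and St6gal1 (−2.43), a sialyltransferase. All 10 were also called lower in strict cells, with log2 fold changes from −4.50 to −1.76. In Trdc-bearing cells 9 of 9 tested were called lower. Strict and Trdc-bearing cells are part of the sums from which these genes were picked, so their calls are no independent support.

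The largest rises were led by γδ receptor genes, cytokines, and granule genes. Trdc itself stood at 8.17 and 15.3 CPM in WT, against 184 and 239 CPM in the KO-labelled libraries (log2 fold change 4.18 ± 0.25, adjusted p = 0.000389). The γ chain constant genes rose with it, Tcrg-C2 by 4.52 and Tcrg-C4 by 3.74. These 3 genes moved with the share of Trdc-bearing cells given above. In strict cells Tcrg-C2 was still higher, by 4.45 (adjusted p = 0.00271), but on few UMIs. All 11 γδ markers in the counts together had 23 and 28 UMIs in the strict KO-labelled sums, and 26 and 27 in the larger WT ones.

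Il13, a type 2 cytokine, stood at 6.01 and 3.15 CPM in WT, against 147 and 208 CPM in the KO-labelled libraries (5.23 ± 0.27, adjusted p = 0.000346). Its UMIs came from 48 of 225 and 17 of 164 cells, with 33.8% and 41.5% of them in the highest cell. Il22, a cytokine that acts on epithelium, rose by 7.34 ± 1.48 (adjusted p = 0.0107), from 0.601 and 0 CPM to 9.72 and 110 CPM, but 242 of the 244 UMIs in KO 2 lay in 1 cell. Il10, an anti-inflammatory cytokine, was at 2.76 and 4.38 CPM in WT, against 73.9 and 15.4 CPM in KO 1 and KO 2 (3.74 ± 0.65, adjusted p = 0.00642), while in strict cells it gave −0.91 (adjusted p = 0.613). The rise in Il10 was thus lost in strict cells, and that in Il22 rested on few cells.

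Gzmc, a granzyme of activated killer cells, went from 1.92 and 1.23 CPM to 330 and 121 CPM (7.15 ± 0.60, adjusted p = 0.000659), with UMIs in 26.2% and 12.8% of KO-labelled cells and 0.772% and 1.01% of WT cells. Gzma, granzyme A, went from 36.8 and 42.8 CPM to 879 and 385 CPM (4.001 ± 0.37), and rose in strict cells by 3.16 (adjusted p = 0.00566). Among Trdc-bearing cells Gzma gave 0.39 (adjusted p = 0.606), but the WT level there rested on few cells. In WT 1, the 19 Trdc-bearing cells held 249 of the 306 Gzma UMIs of all Tcm cells, and 230 lay in 1 cell. Serpine2, a serine protease inhibitor, went from 7.33 and 13.1 CPM to 183 and 146 CPM (4.03 ± 0.23), and Ttc39c from 7.21 and 5.61 CPM to 103 and 91.2 CPM (3.92 ± 0.15). Unlike the cytokines, these last genes were spread over many cells, with Serpine2 UMIs in 52.4% and 38.4% of KO-labelled cells. Of the 10 genes with the largest rises, 6 could be tested in strict cells, and 5 of them were called higher there. In Trdc-bearing cells 5 of 9 were called higher. Trdc, 1 of the 10 genes, cannot be read there, since these cells were chosen for a Trdc UMI. These cells too are part of the sums from which the genes were picked.

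**Figure D4:**
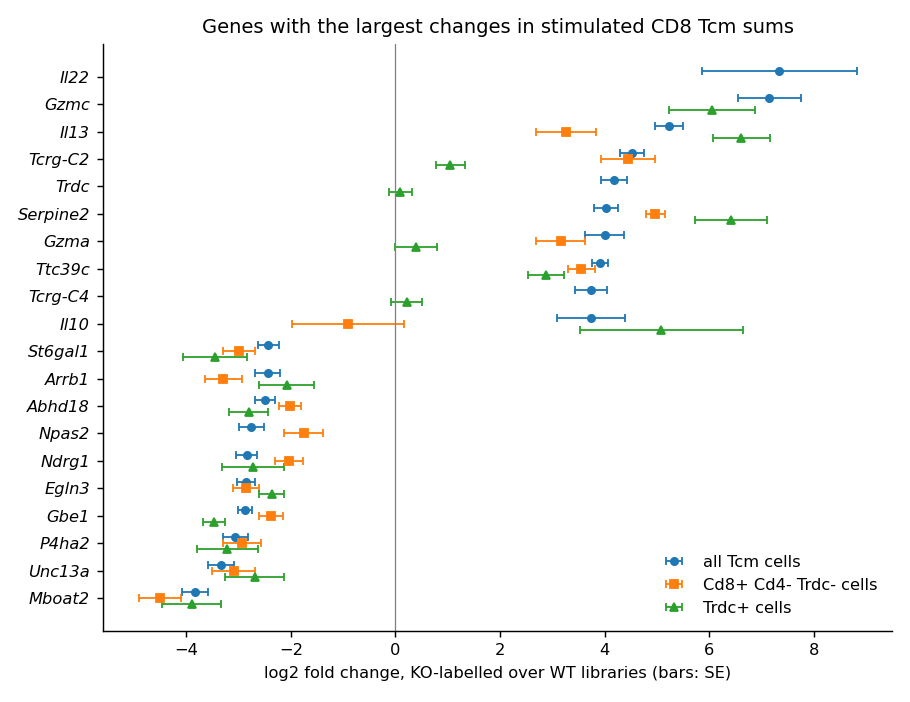
Log2 fold changes of KO-labelled over WT libraries, with SE bars, for the 10 genes with the largest rise and the 10 with the largest fall among called genes of at least 20 CPM, in all Tcm cells (circles), strict cells (squares), and Trdc-bearing cells (triangles). The falls lie between −1.76 and −4.50 in both of the first sets. Trdc and Tcrg-C4 sit near 0 in Trdc-bearing cells, which were chosen for a Trdc UMI. Gzma also sits near 0 there, but most of its WT 1 UMIs lay in 1 cell.

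HIF targets outside glycolysis, genes that HIF-1 induces at low oxygen, were lower as a group. Of 26 listed genes 24 were tested, and 21 fell and none rose, with a median log2 fold change of −1.39 against 0.01 over all genes. In strict cells 19 of 24 fell (median −1.38), in Trdc-bearing cells 15 of 22 (median −1.46), and in Tem cells 21 (median −1.59). Ero1l, an oxidase of the endoplasmic reticulum, was at 739 and 927 CPM in WT, against 201 and 145 CPM in the KO-labelled libraries (−2.25 ± 0.18, adjusted p = 0.000616). The count was 17 to 21 when any 1 library was left out.

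Glycolysis genes followed in part. Of 21 genes 11 fell and none rose (median −0.54), and in strict cells 7 fell and 1 rose. The count of falls was 6 without WT 1, 4 without WT 2, and 16 without KO 1. Slc2a3, the glucose transporter GLUT3, was at 510 and 643 CPM in WT, against 103 and 111 CPM in the KO-labelled libraries (−2.43 ± 0.14, adjusted p = 0.000389), and fell by 2.66 in strict cells. Slc16a3, the lactate exporter MCT4, was at 337 and 388 CPM in WT, against 166 and 77.2 CPM in the KO-labelled libraries (−1.54 ± 0.28, adjusted p = 0.0074). Gapdh, by contrast, stood at 969, 1066, 1121, and 662 CPM, with the groups overlapping (−0.19 ± 0.22, adjusted p = 0.566). In Tem cells 18 of the 21 genes fell.

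The promoters of genes from both lists were searched for ACGTG, the core letters of the hypoxia response element, on either strand, in the window from 250 bases before to 50 bases after the start (RefSeq, GRCm38.p6). The letters were found in 16 of the 22 HIF targets and 13 of the 20 glycolysis genes with a promoter in the table, against 21.8% of 27025 genes. They were found in 4 of 15 sterol synthesis genes and 5 of 15 ribosome biogenesis genes. A match describes letters only and is no evidence of binding. P4ha2, Egln3, and Gbe1 are shown because they are among the largest falls and have 2, 1, and 0 matches. The matches are in capitals, and each sequence reads 5′ to 3′ on the strand of its gene.
P4ha2 (chr11:54100674-54100973, plus strand): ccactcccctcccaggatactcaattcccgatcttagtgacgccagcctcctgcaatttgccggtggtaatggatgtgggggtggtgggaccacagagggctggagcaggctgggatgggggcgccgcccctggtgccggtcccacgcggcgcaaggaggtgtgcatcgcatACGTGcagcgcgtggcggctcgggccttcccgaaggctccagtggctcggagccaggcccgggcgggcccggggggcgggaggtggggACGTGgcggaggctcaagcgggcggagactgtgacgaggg
Egln3 (chr12:54203825-54204124, minus strand): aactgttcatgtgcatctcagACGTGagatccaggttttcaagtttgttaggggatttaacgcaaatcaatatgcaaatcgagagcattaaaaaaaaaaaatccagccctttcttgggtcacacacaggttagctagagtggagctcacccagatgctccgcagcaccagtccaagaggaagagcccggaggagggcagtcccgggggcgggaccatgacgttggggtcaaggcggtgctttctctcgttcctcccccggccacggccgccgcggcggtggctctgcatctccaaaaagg
Gbe1 (chr16:70313699-70313998, plus strand): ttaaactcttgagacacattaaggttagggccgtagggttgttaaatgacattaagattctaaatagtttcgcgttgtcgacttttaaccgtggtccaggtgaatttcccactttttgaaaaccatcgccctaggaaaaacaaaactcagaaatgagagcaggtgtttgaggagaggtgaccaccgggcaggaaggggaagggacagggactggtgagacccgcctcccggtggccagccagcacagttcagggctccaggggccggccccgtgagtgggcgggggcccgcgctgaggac

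**Figure D5:**
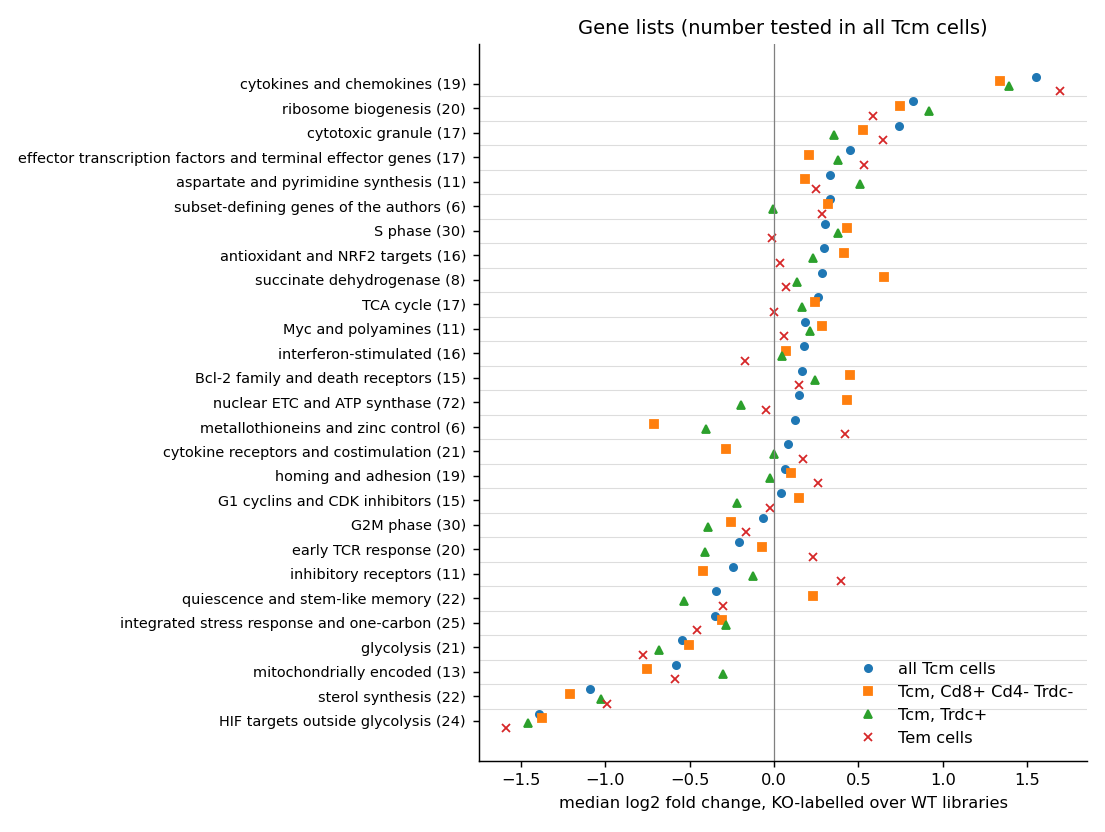
Each row is a gene list with the number of its genes tested in all Tcm cells, and points give its median log2 fold change of KO-labelled over WT libraries in all Tcm cells, strict cells, Trdc-bearing cells, and Tem cells. HIF targets (−1.39) and sterol synthesis (−1.09) lie lowest and cytokines and chemokines (1.55) highest over all Tcm cells, and the quiescence list changes side between all (−0.35) and strict cells (0.23).

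Sterol synthesis genes were lower as well. Of 22 genes 18 fell and 1 rose (median −1.09), and in strict cells 15 fell and none rose. Msmo1, a methylsterol monooxygenase, was at 205 and 242 CPM in WT, against 61.1 and 78.6 CPM in the KO-labelled libraries (−1.70 ± 0.15, adjusted p = 0.000669). Acat2, a thiolase, fell by 1.48 (−1.01 in strict cells, adjusted p = 0.0641), and Ebp, a sterol isomerase, rose by 0.55 (adjusted p = 0.0172) but gave 0.15 in strict cells.

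Some mitochondrially encoded genes of the ETC fell. Of the 13 mitochondrial genes 5 fell and none rose (median −0.58), and 3 fell in strict cells, 1 in Trdc-bearing cells, and 12 in Tem cells. The largest fall was that of mt-Nd6, the complex I gene on the light strand, from 532 and 542 CPM to 220 and 195 CPM (−1.37 ± 0.11, adjusted p = 0.000571). mt-Co1, a core subunit of complex IV, fell by 0.81 (−1.02 in strict cells, adjusted p = 0.0686), while mt-Atp6, of ATP synthase, gave −0.28 (adjusted p = 0.37). The count was 2 without WT 1, 1 without WT 2, and 9 without KO 2. Of 72 nuclear ETC and ATP synthase genes 17 rose and 2 fell (median 0.15), and in strict cells 14 rose and none fell (median 0.43). In Tem cells 6 rose and 16 fell (median −0.05).

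Ndufb10, a complex I subunit, rose by 0.79 ± 0.13 (adjusted p = 0.00465), and by 1.43 in strict cells. Cyc1, cytochrome c1, rose by 0.64 (0.36 in strict cells, adjusted p = 0.17), and Ndufv3, of complex I, fell by 1.10 over all Tcm cells and gave −0.34 in strict cells (adjusted p = 0.309). With 1 library left out, the median over the nuclear genes was 0.07 without WT 1, 0.17 without WT 2, 0.01 without KO 1, and 0.26 without KO 2. In Trdc-bearing cells none of the 72 rose, 2 fell, and the median was −0.19. Among cells under 10% mitochondrial UMIs, 46 of 72 rose (median 0.99), where 1022 of all 7473 genes tested rose and 739 fell. The nuclear ETC list therefore depended on which cells were summed. The part of the mitochondrial percentage of the cells in this was not tested.

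Ribosome biogenesis genes rose together, with 18 of 20 higher and none lower (median 0.82), 10 of 20 higher in strict cells, and 8 of 20 in Trdc-bearing cells. Without WT 2, 10 were higher. Nolc1, a nucleolar chaperone, went from 160 and 144 CPM to 376 and 406 CPM (1.36 ± 0.10, adjusted p = 0.000571), and Mybbp1a, a nucleolar protein, from 89.7 and 81.7 CPM to 213 and 222 CPM (1.34 ± 0.10). Npm1, nucleophosmin, gave 0.13 (adjusted p = 0.452). Of 11 Myc and polyamine genes 3 rose (2 of 10 in strict cells, and 1 without WT 2), among them Srm, spermidine synthase, from 50.9 and 53.1 CPM to 166 and 151 CPM (1.61 ± 0.10, adjusted p = 0.000456), and Odc1, ornithine decarboxylase, by 0.77. Of 11 aspartate and pyrimidine synthesis genes 6 rose and none fell (median 0.33), with 3 higher in strict cells, 2 without WT 1, and 1 without WT 2. Got2, the mitochondrial aspartate transaminase, rose by 0.87 (0.59 in strict cells, adjusted p = 0.0461). Dhodh, which feeds electrons from pyrimidine synthesis into the ETC, rose by 0.78 over all Tcm cells and gave 0.18 in strict cells (adjusted p = 0.646).

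Of 25 genes of the integrated stress response and 1-carbon metabolism 3 rose and 10 fell (median −0.35), with 2 higher and 4 lower in strict cells and 5 or 6 lower without WT 1 or WT 2. Asns, asparagine synthetase, fell by 1.13 and the folate enzyme Mthfd1 rose by 0.95, and both were called in strict cells. Ddit4, an inhibitor of mTORC1 that also responds to hypoxia, fell by 1.64 but gave −0.95 in strict cells (adjusted p = 0.159). Shmt1, another folate enzyme, rose by 0.88 but gave 0.40 in strict cells (adjusted p = 0.236). Of 17 TCA cycle genes 5 rose and none fell (median 0.26), 4 rose in strict cells, 8 without KO 2, and none without WT 1 or WT 2.

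Cytokine and chemokine genes were higher, with 12 of 19 called higher and 3 lower (median 1.55), and 9 higher and 2 lower in strict cells. In Trdc-bearing cells 5 of 16 were higher and 1 lower (median 1.39). Over all Tcm cells the median was 0.75 without KO 2, and from 1.37 to 1.68 without 1 of the other libraries. Ifng, interferon-γ, was at 1699 and 2682 CPM in WT, against 6366 and 6477 CPM in the KO-labelled libraries (1.55 ± 0.22, adjusted p = 0.00335), with UMIs in 58.5% and 63.7% of WT cells and 83.6% and 72.0% of KO-labelled cells. In strict cells it rose by 1.60 (adjusted p = 0.0203). Csf2, GM-CSF, went from 16.0 and 27.5 CPM to 93.3 and 240 CPM (2.91 ± 0.44, adjusted p = 0.00414). Its UMIs came from few cells, 28 of 225 and 26 of 164 in the KO-labelled libraries. The highest cell held 34.2% and 39.7% of them there, and 48.9% and 71.1% in WT. Ltb, lymphotoxin β, moved the other way, from 629 and 693 CPM to 148 and 293 CPM (−1.61 ± 0.27, adjusted p = 0.00568).

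Of 17 cytotoxic granule genes 8 rose and none fell (median 0.74), and 5 of 15 rose in strict cells. The count of rises was 3 without WT 1, 4 without WT 2, and 12 without KO 2. Gzmb, granzyme B, had UMIs in 98.2% to 99.8% of cells and went from 4675 and 5625 CPM to 9614 and 11460 CPM (1.03 ± 0.18, adjusted p = 0.00623), but in strict cells it gave 0.52 (adjusted p = 0.297). Of 17 effector genes 7 rose and 2 fell, against 2 and 1 in strict cells, and the count of rises was 2 without WT 1 and 1 without WT 2. Batf, an AP-1 factor, rose by 1.13 and Runx3, a factor of CD8 identity, fell by 0.41, and both were called in strict cells. Klrd1, an inhibitory receptor shared with NK cells, rose by 1.16 but gave 0.83 in strict cells (adjusted p = 0.107). Irf4, a factor of T cell activation, fell by 0.40 but gave −0.13 in strict cells (adjusted p = 0.623).

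Inhibitory receptors moved in both directions. Ctla4 was at 609 and 689 CPM in WT, against 234 and 214 CPM in the KO-labelled libraries (−1.53 ± 0.12, adjusted p = 0.000571), and Lag3 fell by 1.29. Pdcd1, which encodes PD-1, went from 24.7 and 29.7 CPM to 60.8 and 71.8 CPM (1.27 ± 0.14, adjusted p = 0.00142), and all 3 of these changes were also called in strict cells. Havcr2, which encodes TIM-3, rose by 3.15 over all Tcm cells (adjusted p = 0.000527) but gave 0.86 in strict cells (adjusted p = 0.493) and 0.50 in Trdc-bearing cells. In all, 3 of 11 rose and 3 fell, and 5 fell without KO 2.

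The genes that the study used to name subsets did not shift as 1 block. Ccr7 was at 366 and 388 CPM in WT, against 156 and 219 CPM in the KO-labelled libraries (−1.02 ± 0.16, adjusted p = 0.00423). In strict cells Ccr7 gave −0.21 (adjusted p = 0.43). Cd44, a receptor of antigen-experienced cells, rose by 0.68, and by 0.71 in strict cells. Itga4, an integrin chain, rose by 0.76 (0.38 in strict cells, adjusted p = 0.199). Il7r gave 0.34 (adjusted p = 0.17), Tcf7 gave 0.31 (adjusted p = 0.127), and Foxp3 had 4 UMIs in WT and 3 in the KO-labelled libraries.

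Of 22 quiescence and stem-like memory genes 10 fell and 1 rose (median −0.35), but 1 fell and 1 rose in strict cells (median 0.23), and 5 fell and none rose without WT 1 or WT 2. Bcl2, an inhibitor of apoptosis, fell in both, from 1741 and 1772 CPM to 695 and 557 CPM (−1.49 ± 0.14, adjusted p = 0.000883) and by 1.33 in strict cells. Tcf7, a transcription factor of stem-like cells, was the gene that rose in strict cells, by 0.77 (adjusted p = 0.0215). Ly6c2, a marker of memory and effector CD8 cells, was the gene that rose over all Tcm cells, by 1.14 (0.74 in strict cells, adjusted p = 0.327). Cd8b1 fell by 1.70 and Cd8a from 237 and 278 CPM to 80.6 and 103 CPM over all Tcm cells. In strict cells, chosen for a Cd8 UMI, Cd8a gave −0.11 and Cd8b1 −0.34.

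Of 30 S phase genes 12 rose and none fell (median 0.30), with 6 higher in strict cells, 1 in Trdc-bearing cells, 3 without WT 1, and 2 without WT 2. In Tem cells 3 rose and 7 fell. Mcm2, of the replicative helicase, rose by 0.78 and was called in strict cells, and Rrm2, of ribonucleotide reductase, rose by 0.79 (0.66 in strict cells, adjusted p = 0.0511). G2M genes were mixed, and over all Tcm cells their counts lay near the shares of all genes tested (14.4% higher and 13.5% lower). Of 30 genes, 5 were higher and 6 lower over all Tcm cells, and 1 higher and 4 lower in strict cells. Without WT 1 there were 2 higher and 2 lower, and without WT 2 none higher and 1 lower. Bub1, a spindle checkpoint kinase, fell by 1.05 and Top2a, topoisomerase II, by 0.52. Mki67 as a level gave 0.16 (adjusted p = 0.281). Of 15 cyclin and CDK inhibitor genes 3 rose and 4 fell, with Ccnd2, cyclin D2, at 0.71 and the inhibitor Cdkn1b at −1.29 (−1.09 in strict cells, adjusted p = 0.0578). None rose and 1 fell without WT 1 or WT 2.

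The change between KO-labelled and WT libraries was also set against that in Tem cells, in which 4128 of 12375 genes were called (33.4%, with 17.1% higher and 16.3% lower). The difference of the changes was called at 25 of 13395 genes (0.187%), 6 higher (0.0448%) and 19 lower (0.142%) in Tcm, and 1744 had an unadjusted p under 0.05. On the scale of this joint fit, Specc1 was at 19.8, 26.3, 25.3, and 20.5 CPM in Tcm cells (WT 1, WT 2, KO 1, KO 2) and at 8.80, 14.7, 31.1, and 29.1 CPM in Tem cells (difference −1.37 ± 0.19, adjusted p = 0.0406). Gpr183, a chemotactic oxysterol receptor, fell in Tcm cells by 0.65 and gave 0.56 in Tem cells (difference −1.26 ± 0.15, adjusted p = 0.0225). Rgs16, Gm26827, and Tnfsf8 had differences of −1.25, −1.20, and −1.13. H2-Ab1, an MHC class II gene, had a difference of 3.23 ± 0.37 (adjusted p = 0.0225), but 91.4% of its 290 UMIs in KO 1 Tcm cells lay in 5 cells, in the library with the B cell markers.

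Bad, a proapoptotic gene, was at 7.15, 7.19, 34.4, and 24.4 CPM in Tcm cells and at 33.5, 21.2, 32.8, and 27.8 CPM in Tem cells (difference 1.88 ± 0.23, adjusted p = 0.0225), with 55.8% of the KO 1 Tcm UMIs in 5 cells and 26.5% of the KO 2 ones in 1 cell. Ankrd35, Gm26917, and Litaf had differences of 1.45, 1.30, and 0.87. Lag3 (−0.95, adjusted p = 0.0225), Cd8a (−1.04), and Cd8b1 (−0.83) were also among the 25 genes. The count went from 3 without WT 2 to 885 without KO 2, with 669 without KO 1, and was 82 with DESeq2 and 1 without the library block.

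Tcm and Tem cells were drawn by clustering on the same counts, so their differences are a description without a test. Of the 6217 genes at 20 CPM or more on average, 1589 (25.6%) were at least 2-fold apart in the same direction in all 4 libraries, 62 (0.997%) higher and 1527 (24.6%) lower in Tcm cells. Without composition scaling the split was 1330 higher and 540 lower, so the balance of directions followed the scaling. Of the genes higher in Tcm cells, all 13 mitochondrial genes were among the 62, led by mt-Atp6 with log2 ratios of 2.02, 2.13, 1.99, and 2.29. The others at the top were Gm26749, mt-Co3, Gm36975, mt-Co2, Gm48678, mt-Nd4l, Lrrc4, mt-Nd2, and mt-Cytb, with mean log2 ratios from 1.94 to 2.16.

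The genes lowest in Tcm cells were Pfn1, profilin, with log2 ratios of −3.23, −3.03, −2.38, and −3.01, followed by Gapdh (mean −2.84), Npm3, Tmsb10, Csnk2b, Atp5e, Myl12a, Rps19bp1, Gpx1, and Rpl29 (mean −2.47). Of 72 nuclear ETC and ATP synthase genes 53 were lower in all libraries, as were 10 of 18 glycolysis genes. So were 10 of 30 S phase genes and 8 of 20 ribosome biogenesis genes, with none of these lists' genes higher. The share over all genes was 24.6% lower, and these lists were not counted without composition scaling. Subset-defining genes were closer between the subsets, with mean log2 ratios of 0.73 for Cd44, 0.79 for Itga4, 0.68 for Il7r, −0.14 for Ccr7, and −0.53 for Tcf7. None of them was 2-fold apart in all 4 libraries, and Ccr7 differed little between Tem and Tcm cells of WT, with log2 ratios of 0.08 and 0.07. Before scaling, Ccr7 was higher in WT Tcm cells, at 354 and 371 CPM against 209.6 and 233 CPM in WT Tem cells. In the scaling of this comparison, Sdha gave log2 ratios of −0.23 and −0.25 in WT and 0.42 and 0.36 in the KO-labelled libraries. Before scaling the WT direction turned, with 106 and 101 CPM in Tcm against 78.5 and 78.8 CPM in Tem cells.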

How the data were processed

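T cells from 8 mouse spleen libraries (WT and SDHA-KO, unstimulated and stimulated, 2 each) were profiled with 10x Genomics 3′ chemistry. The authors aligned and counted the reads with Cell Ranger (bcl2fastq and mm10 per the submitters' processing notes) and deposited raw UMI counts of 20170 genes in 12846 cells. They removed stimulated cells with over 8000 detected genes, and named the clusters of integrated data from Cd4 and Cd8a and from memory, naive, and regulatory markers (among them Ccr7, Tcf7, Il7r, Cd44, Itga4, and Foxp3). The cell table that the authors deposited holds the class, the subset, the percent of mitochondrial UMIs, and a log10 ratio of Cd4 to Cd8a, which was not used. The sources used here do not state separate doublet removal, and no doublet caller was run.

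UMIs were summed per library over the Tcm cells. KO-labelled and WT sums were compared with edgeR 4.0.16 (R 4.3.3, quasi-likelihood test, TMM scaling, filterByExpr with a minimum count of 10), with Benjamini-Hochberg adjusted p under 0.05 as called. CPM are TMM-scaled counts per library total unless stated otherwise, ± denotes SE for log2 values, and n is 2 libraries a genotype in each fit. The difference of changes between Tcm and Tem was fitted with a term for each library. The scripts were tested on simulated counts. DESeq2 1.42.0, limma 3.58.1, and other scalings, filters, cells, and libraries left out were tried as alternatives.

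Named genes were the 10 largest rises and the 10 largest falls among called genes of at least 20 CPM, the 5 largest in each direction for the difference from Tem, and examples from 27 gene lists. Members, lists, and rules were chosen with earlier results of these data known. Same-numbered libraries did not deviate together (correlation of deviations −0.05). Results for some genes are not reported here.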

Additional observations from a re-analysis of the deposited data

Results flagged for a closer look

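The change between KO-labelled and WT libraries differed between Tcm and Tem cells, by the test of the difference itself (edgeR, adjusted p under 0.05), at 25 genes, of which the 10 of the naming rule are given here. On the log2 scale, Tcm minus Tem, the differences were −1.37 for Specc1, −1.26 for Gpr183, −1.25 for Rgs16, −1.20 for Gm26827, and −1.13 for Tnfsf8. In the other direction they were 3.23 for H2-Ab1, 1.88 for Bad, 1.45 for Ankrd35, 1.30 for Gm26917, and 0.87 for Litaf. H2-Ab1 had 214 and 256 UMIs over 175 and 195 cells in WT 1 and WT 2, 290 UMIs in KO 1, of which 91.4% lay in 5 cells, and 3 UMIs in KO 2. The part of the B cell markers of KO 1 in this difference was not tested. Among strict cells, Specc1, Gpr183, Tnfsf8, and Gm26917 were called again and the other 6 genes were not.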

How the results depend on the processing

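The number of genes called between KO-labelled and WT Tcm sums (3358) ranged from 862 to 4047 when 1 library was left out. It was 1906 with DESeq2, 1091 at 2-fold or more, 1761 in cells under 10% mitochondrial UMIs, 1784 in cells without and 434 in cells with a Trdc UMI, 1308 in strict cells and 1281 in these without mitochondrial genes. Within clusters it was 329 (Tcm1), 2623 (Tcm2), 1397 (Tcm3), 493 (Tcm4), and 118 (Tcm5). With the replicate number as a block it was 2481, and since the libraries share only a number, the block is given here once. Without composition scaling 2338 genes were higher and 1264 lower, against 1733 and 1625. The number of genes whose change differed from Tem (25) was 10 with DESeq2 size factors, 47 without scaling, 532 without the filter, 82 with DESeq2, 16 at 2-fold or more, 1 without the library block, 586 in cells under 10% mitochondrial UMIs, and 3 to 885 with 1 library left out. Genes 2-fold apart between Tcm and Tem (1589) numbered 946 in strict cells and 869 under 10% mitochondrial UMIs.

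As KO-labelled minus WT, the Tcm share of CD8 cells was −47.4 points in strict cells and −1.36 under 10% mitochondrial UMIs. The median UMIs differed by −1347.5 and 6512.75 in these cells, and the median mitochondrial percentage by −3.58 in strict cells. The Trdc share differed by 64.2 points at full depth, 33.0 in cells with a Cd8 and no Cd4 UMI, and 21.7 under 10% mitochondrial UMIs, and the Mki67 share by 1.33 in strict cells and −7.61 under 10%.

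Over 87 genes and 26 alternatives, 1845 values kept direction and side of the threshold, 321 were no longer called, 22 became called, and 36 changed direction, as did 1 difference from Tem cells. These were, in cells thinned to 5000 UMIs, Sdha (0.0087) and Sdhc (−0.18). In Trdc-bearing cells they were Sdha (0.20), Sdhc (−0.40), Tcf7 (−0.043), Mki67 (−0.10), and Runx3 (0.0083). In strict cells they were Il10 (−0.91) and Mki67 (−0.26), and without mitochondrial genes there Il10 (−0.88), Mki67 (−0.23), and Gapdh (0.011). Under 10% mitochondrial UMIs they were Il7r (−0.055), Mki67 (−0.49), Gapdh (0.70), Ndufv3 (0.041), and the Specc1 difference (0.33). In cells without a Trdc UMI they were Mki67 (−0.20) and Gapdh (0.39), and with 1 library left out Gapdh ranged from −0.62 to 0.14. Within Tcm1 they were Sdha (0.25), Sdhb (−0.033), Sdhc (−0.11), Mboat2 (0.58), Tcf7 (−0.067), and Mcm2 (−0.017), within Tcm2 Mki67 (−0.22) and Gapdh (0.30), and within Tcm3 Tcf7 (−0.29). Within Tcm4 they were Sdha (0.15), Sdhc (−0.033), Top2a (0.0063), and mt-Atp6 (0.080), and within Tcm5 Sdha (0.13), Il7r (−0.48), Mki67 (−0.60), and Mthfd1 (−0.081). The cause was not tested. Strict KO-labelled sums rest on 82 cells, so small changes were not detectable there.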

Other observations

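Over all genes tested, 14.4% were higher and 13.5% lower in all Tcm cells, and 6.4% and 5.41% in strict cells. Of 21 cytokine receptor and costimulation genes 3 rose and 5 fell over all Tcm cells, and none of 21 was called in strict cells. Tnfrsf4, the costimulatory receptor OX40, went from 1212 and 1240 CPM to 665 and 620 CPM (−0.93), and Cd28 fell by 0.69, while in strict cells they gave −0.55 (adjusted p = 0.121) and −0.19 (adjusted p = 0.48). Of 19 homing and adhesion genes 4 rose and 5 fell (1 and 2 in strict cells), with Itgb7, an integrin chain, at 125 and 135 CPM in WT against 43.3 and 49.2 CPM in the KO-labelled libraries (adjusted p = 0.000571). Of 15 genes of the Bcl-2 family and death receptors 5 rose and 1 fell, with Bak1, a pore-forming death effector, higher by 1.01. Of 16 antioxidant genes 5 rose and 1 fell, among them Gpx1, a glutathione peroxidase (1.09), and Txnrd1, thioredoxin reductase (0.90), both also called in strict cells. Of 16 interferon-stimulated genes 3 rose and 2 fell (2 and 1 in strict cells), near the shares over all genes. Bst2, tetherin, went from 213 and 213 CPM to 467 and 543 CPM (1.24), whereas Stat2 fell by 0.95. Of 20 early T cell receptor response genes 3 rose and 6 fell (2 and 3 in strict cells), with Ier3 lower by 1.21, and of 6 metallothionein and zinc genes only Mt1 was called, with 173 and 284 CPM in WT against 113 and 51.5 CPM in the KO-labelled libraries (−1.42; −1.15 in strict cells, adjusted p = 0.0594). Without WT 1 or WT 2, from 0 to 4 genes of each of the other 6 lists were called higher and from 0 to 3 lower, and without KO 2 from 4 to 7 higher and from 0 to 8 lower.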
